A study of Mus musculus with 3 samples.

Results

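The genes described here are 37 genes of glycolysis and of the cellular response to low oxygen, chosen by name from 27179 genes in the table. They were split by role into 16 glycolytic enzymes, 5 genes of glucose and lactate handling, and 16 other genes linked to the hypoxia-inducible factors (HIF). Cultures of wild-type mouse bone marrow stromal cells were exposed for 3 days to extracellular vesicles, the small membrane-bound particles that cells shed, isolated from bone marrow plasma. The donors of Ocn-EV carried the CAGS-Snorkel transgene together with Ocn-Cre, driven by the osteocalcin promoter of mature osteoblasts. The donors of Prx1-EV carried the same transgene together with Prx1-Cre, a driver of limb mesenchyme. All-EV, the control, was prepared from wild-type donors. All mice were C57BL/6N and 6 months old, and the plasma of 5 mice (2 males and 3 females) was pooled for each of the 3 preparations. Vesicles were isolated with HA-antibody beads, and how these took up vesicles of wild-type donors, which lack the transgene, is not stated.

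All 3 cultures were kept at 3% oxygen. No culture at a higher oxygen level was analysed here, so the data compare vesicle preparations within low oxygen and do not measure the response to low oxygen. There was 1 library in each group. Differences between groups therefore have no replicate check, no p-value is given, and "higher" and "lower" compare single libraries. Levels are the deposited normalised read counts. Ranges in brackets are 95% intervals that cover counting error only.

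Glycolysis splits glucose into pyruvate in the cytoplasm, and lactate dehydrogenase then turns pyruvate into lactate, which leaves the cell. When oxygen is low, the prolyl hydroxylases that mark HIF alpha subunits for destruction slow down. The stabilised subunits pair with ARNT and switch on genes of glucose uptake, glycolysis, blood vessel growth, mitophagy and collagen hydroxylation. Stromal cells and macrophages of the marrow live at low oxygen and both use glycolysis.

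The libraries held between 14233978 and 17269204 reads assigned to genes. All 37 genes had reads in every library, and all 37 passed a filter of a mean level of at least 50, which left 11067 genes. The cultures held macrophage as well as stromal transcripts. The summed level of 16 macrophage markers was 183366 with Ocn-EV and 165274 with Prx1-EV, against 300979 with All-EV, and none of the 16 was at 0 in any library. The sum was lower mainly through Lyz2 (51741 and 40548, against 140306 with All-EV) and Ctss (30924 and 33863, against 59782). It therefore does not stand for the markers in general. Single macrophage markers differed in both directions: past 1.5-fold from All-EV, 8 were higher and 4 lower with Ocn-EV, and 6 were higher and 6 lower with Prx1-EV. The summed level of 12 stromal markers was 80994 with Ocn-EV and 53836.5 with Prx1-EV, against 15121.5 with All-EV, with Lum at 0 in all 3 libraries. Col1a1 (44981, 30399.5 and 7861) and Col1a2 (25448, 16630 and 4596) made up most of these sums. Of the 8 stromal markers past the filter, 7 were at least 1.5-fold higher and 0 lower in each comparison with All-EV. Below the filter, Dcn went the other way, with 3 reads each with Ocn-EV and Prx1-EV, against 23 with All-EV. Osteoblast markers (5 genes) summed to 2186 with Ocn-EV and 892 with Prx1-EV, against 395 with All-EV, with Bglap at 0 with Prx1-EV and All-EV. Of 9 neutrophil markers, Mmp8 alone passed the filter, at 836 with Ocn-EV and 1008 with Prx1-EV, against 8978 with All-EV, and Elane, Ltf and Ly6g were at 0 throughout. In bulk RNA, fewer cells of a type and less RNA per cell cannot be told apart. The part of cell makeup in the results that follow was not tested.

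The glucose transporter Slc2a1 stood apart from the rest, at 39.0% of its All-EV level with Ocn-EV and 43.3% with Prx1-EV. Enzymes of the later glycolytic steps were lower with both vesicle preparations (with libraries scaled to equal totals, all but Pgam1 with Prx1-EV). As deposited, Ldha, Gapdh and Gpi1 had the lowest ratios of the 16 enzymes. As deposited, the hexokinases Hk1 and Hk3 and the 3 phosphofructokinases differed from All-EV by at most 1.14-fold. The third hexokinase, Hk2, was 1.59-fold lower with Ocn-EV and 1.32-fold lower with Prx1-EV. With equal totals Hk1 was higher than with All-EV, at log2 ratios of 0.34 and 0.39, as was Pfkm, at 0.41 in both comparisons. Of the other HIF-linked genes, the vasodilator peptide gene Adm was lower, whereas the collagen prolyl hydroxylase P4ha2 was higher, as was the glycolytic regulator Pfkfb4. At a threshold of 1.5-fold, 10 of 37 genes were lower with Ocn-EV than with All-EV and 2 were higher, where 13.6% and 13.8% of all 11067 genes were lower and higher. For Prx1-EV against All-EV, 5 of 37 were lower and 2 higher, where 12.7% of all genes lay in each direction, so the count of lower genes is close to the share among all genes. By counting intervals, 26 of 37 genes lay below 0 and 6 above with Ocn-EV (35.0% and 32.0% of all genes), and 21 below and 8 above with Prx1-EV (33.7% and 33.0%). At 2-fold, Slc2a1 alone was lower in each comparison (4.20% of all genes with Ocn-EV and 3.66% with Prx1-EV) and 0 were higher (6.27% and 5.12%). The 2 comparisons share the All-EV library.

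**Figure D1:**
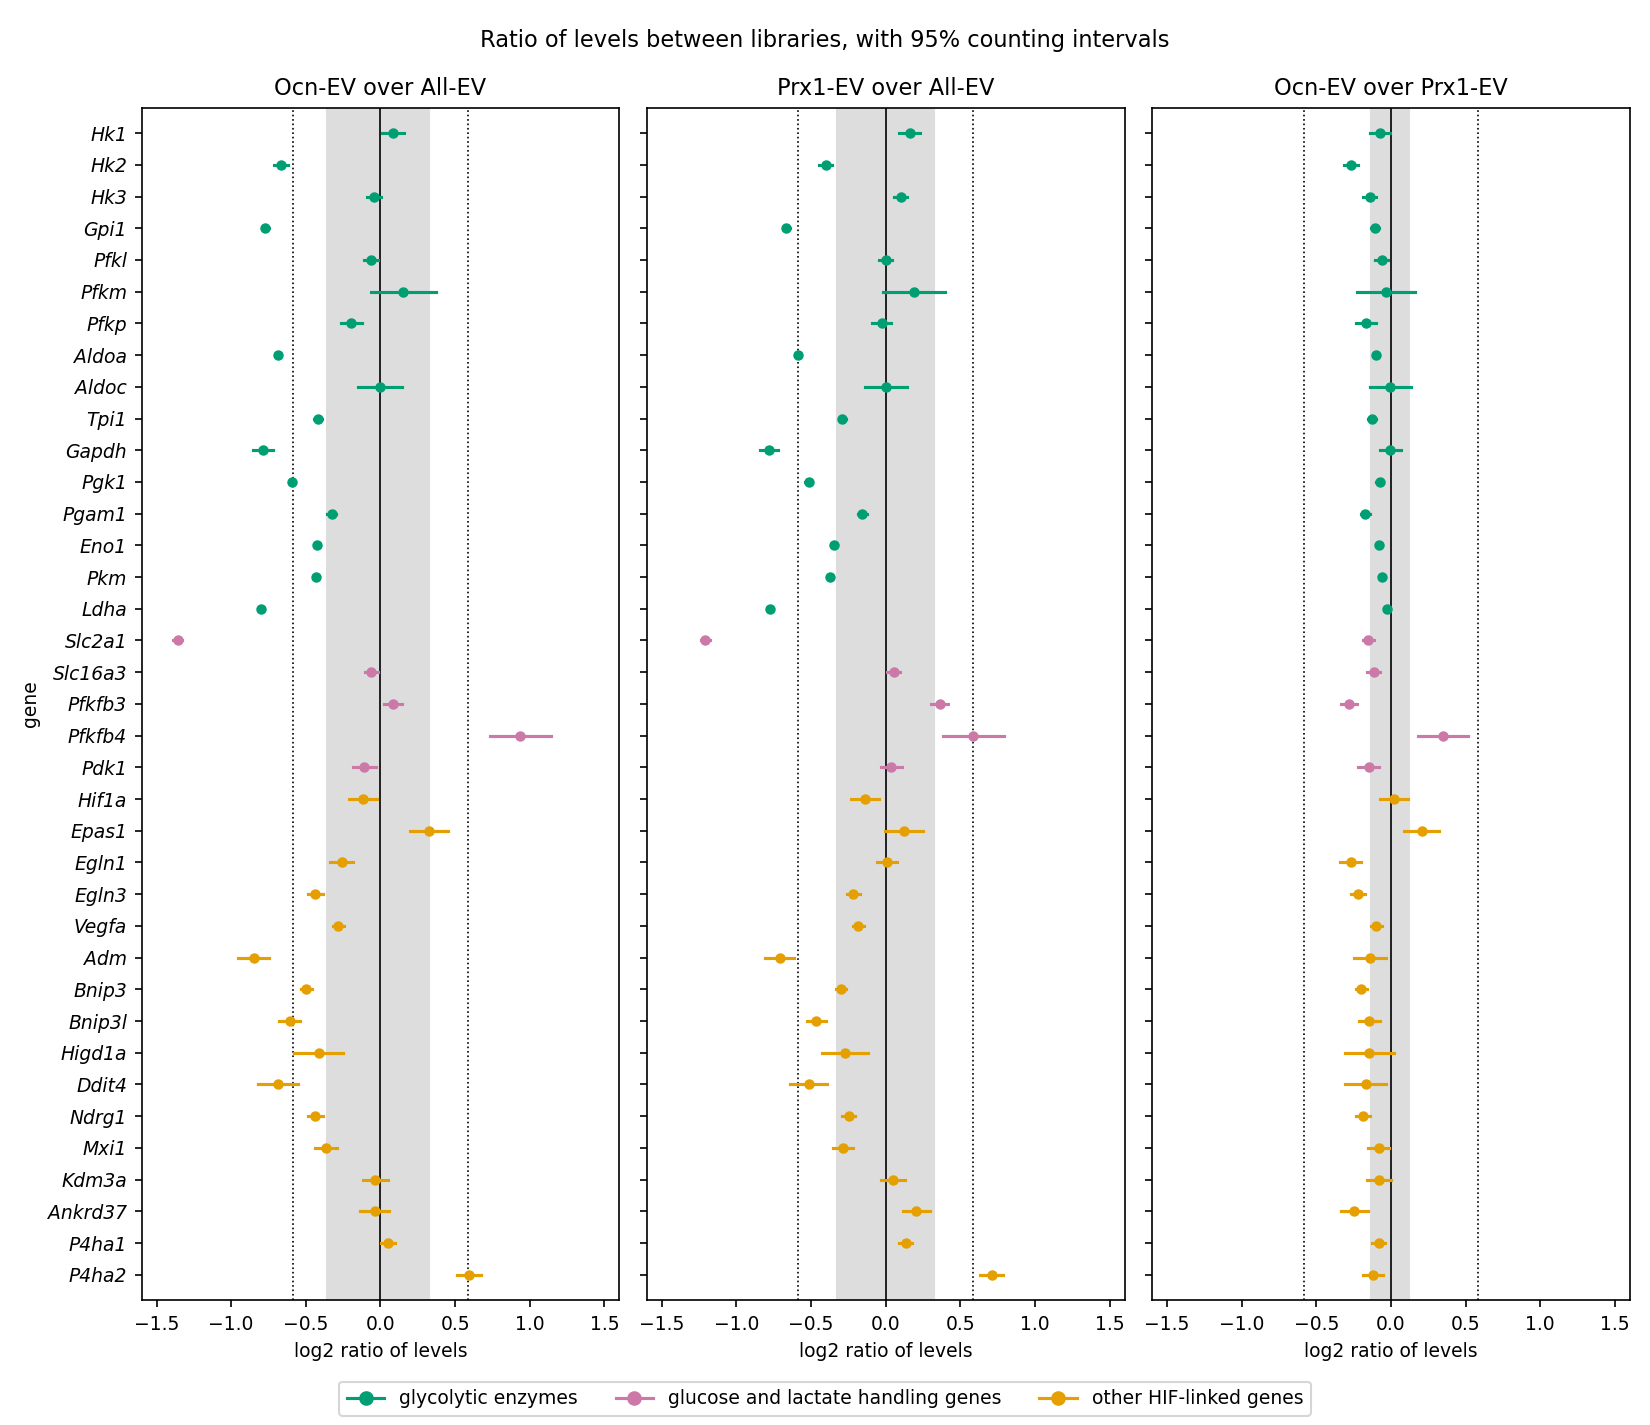
Log2 ratio of levels (x axis) of each of the 37 genes (y axis) in Ocn-EV over All-EV, Prx1-EV over All-EV and Ocn-EV over Prx1-EV, with 95% counting intervals as bars. Grey bands hold the middle 50% of all genes past the filter, and dotted lines mark 1.5-fold. Slc2a1 lies farthest to the left in both panels against All-EV (−1.36 and −1.21), and no gene passes 1.5-fold in the right panel.

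The median log2 ratio of all 37 genes was −0.33 with Ocn-EV, against −0.02 for all genes past the filter. With Prx1-EV it was −0.18, against 0.00 for all genes. The deposited scaling and a scaling to equal read totals differ by a shift of all genes: with equal totals the median of all genes is 0.24 for Ocn-EV and 0.22 for Prx1-EV over All-EV. The medians of the 37 genes were then −0.07 and 0.04, so their sign depends on the scaling with Prx1-EV, while the gap to all genes stayed at −0.31 and −0.18. Counts at 1.5-fold changed too: with equal totals, 2 genes were lower (Slc2a1 and Adm) and 2 higher with Ocn-EV, and 1 was lower (Slc2a1) and 3 higher (Pfkfb4, P4ha2 and Pfkfb3) with Prx1-EV. The other 8 genes lower with Ocn-EV stayed below 0 at log2 ratios of −0.54 to −0.34. The shares of all genes past 1.5-fold given above hold for the deposited scaling and not for the counts at equal totals.

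In both comparisons with All-EV, which share that library, 5 of 37 genes were at least 1.5-fold lower (Slc2a1, Ldha, Gpi1, Gapdh and Adm) and 2 higher (Pfkfb4 and P4ha2). Of all genes past the filter, 9.90% were lower in both and 10.4% higher in both. Their gene identifiers in the table are 20525 for Slc2a1, 16828 for Ldha, 14751 for Gpi1, 14433 for Gapdh, 11535 for Adm, 270198 for Pfkfb4 and 18452 for P4ha2. The 250 bases before a listed start of each gene are shown because these genes carry the differences described here. Sequences and coordinates are from RefSeq on GRCm38.p6, the build that mm10 names, 5′ to 3′ on the strand of the gene. Ldha has 2 listed starts, of which the one first listed is shown. The windows of Ldha, Gapdh and Pfkfb4 lie inside the annotated span of the gene and not before it. Capitals mark the core of the HIF response element, ACGTG or GCGTG, on either strand (CACGT and CACGC on the strand shown).

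Slc2a1 promoter, chr4:119108495-119108744, plus strand: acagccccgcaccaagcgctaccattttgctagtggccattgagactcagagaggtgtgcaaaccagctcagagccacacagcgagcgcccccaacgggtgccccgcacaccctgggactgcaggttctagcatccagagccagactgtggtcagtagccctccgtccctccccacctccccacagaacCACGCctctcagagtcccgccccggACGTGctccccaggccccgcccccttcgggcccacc
Ldha promoter, chr7:46845554-46845803, plus strand: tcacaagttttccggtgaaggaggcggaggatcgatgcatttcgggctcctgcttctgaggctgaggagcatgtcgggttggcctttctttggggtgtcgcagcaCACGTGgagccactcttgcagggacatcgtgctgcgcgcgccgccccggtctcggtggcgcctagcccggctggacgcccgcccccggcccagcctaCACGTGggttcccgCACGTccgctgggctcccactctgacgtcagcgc
Gpi1 promoter, chr7:34230337-34230586, minus strand: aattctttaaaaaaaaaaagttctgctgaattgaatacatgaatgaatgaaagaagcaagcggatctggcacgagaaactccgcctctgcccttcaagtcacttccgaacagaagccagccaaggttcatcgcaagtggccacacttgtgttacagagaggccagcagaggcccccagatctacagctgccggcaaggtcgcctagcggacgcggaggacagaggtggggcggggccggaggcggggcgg
Gapdh promoter, chr6:125165774-125166023, minus strand: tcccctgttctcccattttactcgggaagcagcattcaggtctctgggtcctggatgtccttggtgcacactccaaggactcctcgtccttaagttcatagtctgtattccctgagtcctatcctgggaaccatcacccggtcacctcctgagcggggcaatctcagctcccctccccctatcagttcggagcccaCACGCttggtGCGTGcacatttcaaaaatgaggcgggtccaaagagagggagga
Adm promoter, chr7:110627407-110627656, plus strand: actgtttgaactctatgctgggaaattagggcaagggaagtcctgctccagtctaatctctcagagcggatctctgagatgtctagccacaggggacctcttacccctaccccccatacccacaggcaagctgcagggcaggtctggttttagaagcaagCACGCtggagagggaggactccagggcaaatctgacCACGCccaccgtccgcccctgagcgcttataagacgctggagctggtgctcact
Pfkfb4 promoter, chr9:108991652-108991901, plus strand: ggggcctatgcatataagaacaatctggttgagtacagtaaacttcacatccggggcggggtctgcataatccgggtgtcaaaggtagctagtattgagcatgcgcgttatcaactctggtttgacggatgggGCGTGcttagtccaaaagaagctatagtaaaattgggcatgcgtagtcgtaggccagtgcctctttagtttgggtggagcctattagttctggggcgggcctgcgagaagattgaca
P4ha2 promoter, chr11:54100674-54100923, plus strand: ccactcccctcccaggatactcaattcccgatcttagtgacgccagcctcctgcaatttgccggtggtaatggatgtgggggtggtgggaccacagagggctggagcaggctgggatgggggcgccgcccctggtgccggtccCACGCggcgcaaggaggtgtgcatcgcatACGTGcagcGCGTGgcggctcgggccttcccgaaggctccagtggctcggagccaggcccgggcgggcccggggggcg

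The Ldha promoter held the motif 5 times, in 2 pairs that overlap as CACGTG and 1 single match, nearest at position −34, counted from the start. Slc2a1 held it at positions −61 and −36, and P4ha2 3 times. Adm and Gapdh held it 2 times each, Pfkfb4 1 time and Gpi1 not at all in this window. Promoter sequences were listed for 34 of the 37 genes, not for Bnip3l, Epas1 and Ndrg1. Of their 52 promoters, 78.8% held either form, against 56.3% of 11371 promoters of genes past the filter and 38.6% of all 32851 promoters. For ACGTG alone, the shares were 48.1%, 22.0% and 16.6%. The gene set was assembled from known HIF-linked genes, so this share describes the set. Lower genes and higher genes both held matches, and a match in letters is not a bound site.

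Among the 16 glycolytic enzymes, the first step is catalysed by the hexokinases, which trap glucose in the cell by phosphorylating it. Hk2, the inducible hexokinase, stood at 6395 with Ocn-EV and 7689 with Prx1-EV, against 10151 with All-EV, log2 ratios of −0.67 (−0.71 to −0.62) and −0.40 (−0.44 to −0.36). Hk1, the widely expressed form, stood at 3391 with Ocn-EV and 3573 with Prx1-EV, against 3194 with All-EV. Hk3, the hexokinase of myeloid cells, stood at 8230 with Ocn-EV and 9079 with Prx1-EV, against 8468 with All-EV. Hk2 was below its All-EV level in both libraries. The Ocn-EV interval of Hk3 held 0, and its sign turned positive with equal totals (0.22). Without the dependence on length and GC of transcripts, Hk1 (−0.18 and −0.05) and Hk3 (−0.22 and −0.03) were also below All-EV in both comparisons, and Hk2 was at −0.89 and −0.60, past 1.5-fold in each.

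Gpi1, the isomerase that turns glucose 6-phosphate into fructose 6-phosphate, stood at 24709 with Ocn-EV and 26612 with Prx1-EV, against 42205 with All-EV. This is 58.5% and 63.1% of the All-EV level, with log2 ratios of −0.77 (−0.80 to −0.75) and −0.67 (−0.69 to −0.64), or −0.52 and −0.44 with equal totals. Phosphofructokinase, which commits sugar to glycolysis, is made from the liver form Pfkl, the muscle form Pfkm and the platelet form Pfkp. Pfkl stood at 8214 with Ocn-EV and 8573 with Prx1-EV, against 8577 with All-EV. Pfkm stood at 407 and 416, against 366 with All-EV, and both intervals held 0. Pfkp was at 3489 with Ocn-EV and 3920 with Prx1-EV, against 3995 with All-EV, log2 ratios of −0.20 (−0.26 to −0.13) and −0.03 (−0.09 to 0.04). With equal totals the ratios of Pfkl and Pfkp turned positive in both comparisons. Without the dependence on length and GC, Pfkl was at −0.30 with Ocn-EV and −0.18 with Prx1-EV, and Pfkp at −0.40 and −0.23. The isomerase gene thus lay at least 1.5-fold below All-EV while no phosphofructokinase gene did.

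Aldoa, the main aldolase, cleaves the sugar bisphosphate into trioses. Its level was 64923 with Ocn-EV and 69585 with Prx1-EV, against 104347 with All-EV, log2 ratios of −0.68 (−0.70 to −0.67) and −0.58 (−0.60 to −0.57). The Prx1-EV value lies just short of the 1.5-fold threshold. Aldoc, the aldolase of brain, stood at 825 with Ocn-EV and 828 with Prx1-EV, against 827 with All-EV. Of the pair of aldolase genes, Aldoa was lower in both libraries and the intervals of Aldoc held 0 in both.

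**Figure D2:**
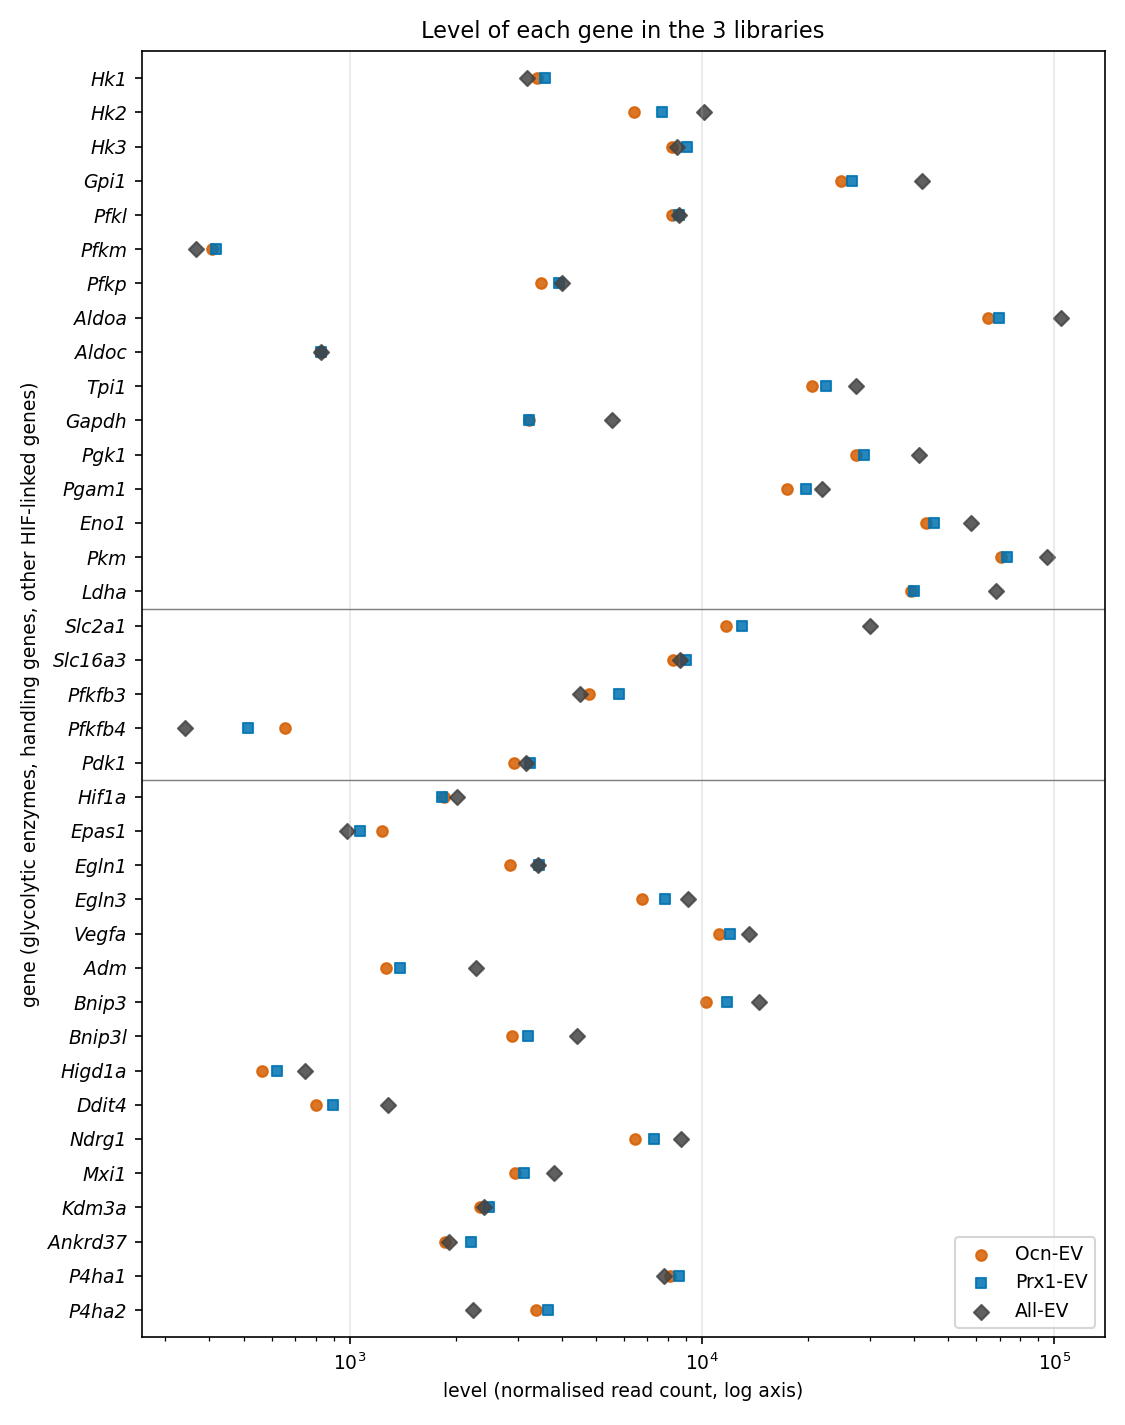
Level of each of the 37 genes (y axis, in the 3 role groups from top to bottom) in the Ocn-EV, Prx1-EV and All-EV libraries, as normalised read counts on a log axis, 1 point a library. Points of Slc2a1, Gpi1, Ldha, Gapdh and Adm lie lower with Ocn-EV and Prx1-EV than with All-EV, and those of Pfkfb4 and P4ha2 lie higher.

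The later steps of glycolysis have 1 main gene each in these cells. Tpi1, which interconverts the triose phosphates, stood at 20507 with Ocn-EV and 22408 with Prx1-EV, against 27396 with All-EV. Gapdh, the dehydrogenase often used as a loading control, stood at 3217 with Ocn-EV and 3224 with Prx1-EV, against 5549 with All-EV, log2 ratios of −0.79 (−0.85 to −0.72) and −0.78 (−0.85 to −0.72). The Ocn-EV and Prx1-EV libraries differed by less than counting error at Gapdh (log2 −0.00, −0.07 to 0.07). Pgk1, the first kinase of glycolysis that yields ATP, stood at 27289 with Ocn-EV and 28759 with Prx1-EV, against 41141 with All-EV. Pgam1, Eno1 and Pkm, which carry the phosphate group to the final pyruvate step, had smaller log2 ratios, from −0.43 to −0.33 with Ocn-EV and from −0.37 to −0.16 with Prx1-EV. Pkm, pyruvate kinase, stood at 70382 with Ocn-EV and 73418 with Prx1-EV, against 94975 with All-EV. These 6 genes were lower with both preparations as deposited, but with equal totals Pgam1 was at 0.07 in Prx1-EV over All-EV, and Gapdh at −0.53 with Ocn-EV and −0.56 with Prx1-EV.

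Ldha, the lactate dehydrogenase subunit favoured in low oxygen, had the lowest ratio of the 16 enzymes with Ocn-EV as deposited, within counting error of Gapdh. Its level was 39111 with Ocn-EV and 39847 with Prx1-EV, against 68141 with All-EV. The log2 ratios were −0.80 (−0.82 to −0.78) and −0.77 (−0.79 to −0.76), and with equal totals −0.54 and −0.55. Without the dependence on length and GC, Ldha was at −0.65 and −0.61. In that setting Hk2 (−0.89), Gapdh (−0.88) and Gpi1 (−0.84) had lower ratios with Ocn-EV. Of 11067 genes, 830 had a lower ratio than Ldha with Ocn-EV and 799 with Prx1-EV.

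As a group the 16 enzymes took 2.32% of reads (2.31 to 2.33) with Ocn-EV and 2.41% (2.40 to 2.42) with Prx1-EV, against 2.83% (2.83 to 2.84) with All-EV. Their median log2 ratio was −0.42 with Ocn-EV and −0.32 with Prx1-EV. With Ocn-EV, 6 of 16 were at least 1.5-fold lower (Hk2, Gpi1, Aldoa, Gapdh, Pgk1 and Ldha) and 0 higher, beside 13.6% and 13.8% of all genes. With Prx1-EV, 3 of 16 were lower (Gpi1, Gapdh and Ldha) and 0 higher, beside 12.7% of all genes in each direction. The median stayed below 0 with equal totals (−0.17 and −0.09) and after removal of a fitted dependence on transcript length and GC content (−0.40 and −0.27), which left Pgk1 at −0.39 with Ocn-EV, short of 1.5-fold.

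Several of these genes have near-identical copies elsewhere in the genome, which can take reads from them or add reads. Of 50-base windows in the longest transcript, 72.2% for Eno1, 68.0% for Pgk1, 41.5% for Pgam1, 34.4% for Pkm and 27.2% for Gapdh also occur exactly in transcripts of other genes. Gapdh shared windows with 213 other genes, the most of the 37. The levels of these 5 genes are uncertain, since how reads with several matches were counted is not stated. For Aldoa, Ldha and Gpi1 the share was 13.5%, 16.6% and 10.2%, and for Bnip3 and Bnip3l it was 21.9% and 23.4%. For Slc2a1, Hk2, Adm, Pfkfb4 and P4ha2 it was 0.

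Slc2a1 opens the group of glucose and lactate handling genes as the transporter that brings glucose into the cell. Its level was 11669 with Ocn-EV and 12961 with Prx1-EV, against 29927 with All-EV. Slc2a1 was 2.56-fold lower with Ocn-EV (log2 −1.36, −1.39 to −1.33) and 2.31-fold lower with Prx1-EV (log2 −1.21, −1.24 to −1.18). The ratio kept its side of 1.5-fold with equal totals (−1.10 and −0.98) and with the length and GC trend removed (−1.48 and −1.30). Of 11067 genes, 188 had a lower ratio than Slc2a1 with Ocn-EV and 239 with Prx1-EV.

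At the other end of the pathway, Slc16a3, the lactate exporter, stood at 8283 with Ocn-EV and 8976 with Prx1-EV, against 8640 with All-EV. Its log2 ratios were −0.06 (−0.11 to −0.02) and 0.05 (0.01 to 0.10), or 0.20 and 0.28 with equal totals. The lactate exporter lay close to its All-EV level in the libraries where the glucose importer was at 39.0% and 43.3% of its own.

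Pfkfb3 and Pfkfb4 encode bifunctional enzymes that set the amount of the sugar phosphate activating phosphofructokinase. Pfkfb4 stood at 654 with Ocn-EV and 514 with Prx1-EV, against 342 with All-EV, 1.91-fold higher (log2 0.94, 0.74 to 1.14) and 1.503-fold higher (log2 0.59, 0.39 to 0.79). The Prx1-EV value sits at the threshold and lay below it, at 0.46, without the dependence on length and GC. Pfkfb3 stood at 4788 with Ocn-EV and 5812 with Prx1-EV, against 4518 with All-EV, log2 ratios of 0.08 (0.02 to 0.15) and 0.36 (0.31 to 0.42). Pfkfb4 was highest with Ocn-EV and Pfkfb3 highest with Prx1-EV.

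Pdk1, the kinase that holds pyruvate back from the mitochondria by shutting off pyruvate dehydrogenase, stood at 2929 with Ocn-EV and 3244 with Prx1-EV, against 3159 with All-EV. The log2 ratios were −0.11 (−0.18 to −0.03) and 0.04 (−0.03 to 0.11). The 5 handling genes had a median log2 ratio of −0.06 with Ocn-EV and 0.05 with Prx1-EV, and of 0.20 and 0.28 with equal totals. The group has no common direction.

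Per kilobase of longest transcript, the shares of related genes differed between libraries chiefly in 4 families. Hk2 held 25.7% of the summed level per kilobase of the 3 hexokinases with Ocn-EV and 27.6% with Prx1-EV, against 35.3% with All-EV, while Hk3 held 56.7% and 55.8%, against 50.4%. Pfkfb4 held 15.8% of the Pfkfb3 and Pfkfb4 pair with Ocn-EV and 10.8% with Prx1-EV, against 9.43% with All-EV. P4ha2 held 35.5% of its pair with P4ha1 with Ocn-EV and 36.1% with Prx1-EV, against 27.4% with All-EV. Epas1 held 36.3% of its pair with Hif1a with Ocn-EV and 33.4% with Prx1-EV, against 29.5% with All-EV. Within a library these shares do not depend on how libraries were scaled, but they do depend on the length used. With mean transcript length, P4ha2 held 52.6% and 53.2%, against 43.2% with All-EV. By that length Hk3 led Hk2 with Ocn-EV (42.6% against 29.3%) and Prx1-EV (42.0% against 31.5%). With All-EV it did not (37.5% against 39.8%). Phosphofructokinase makeup barely differed, with Pfkl at 80.2% with Ocn-EV and 79.4% with Prx1-EV, against 79.7% with All-EV.

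**Figure D3:**
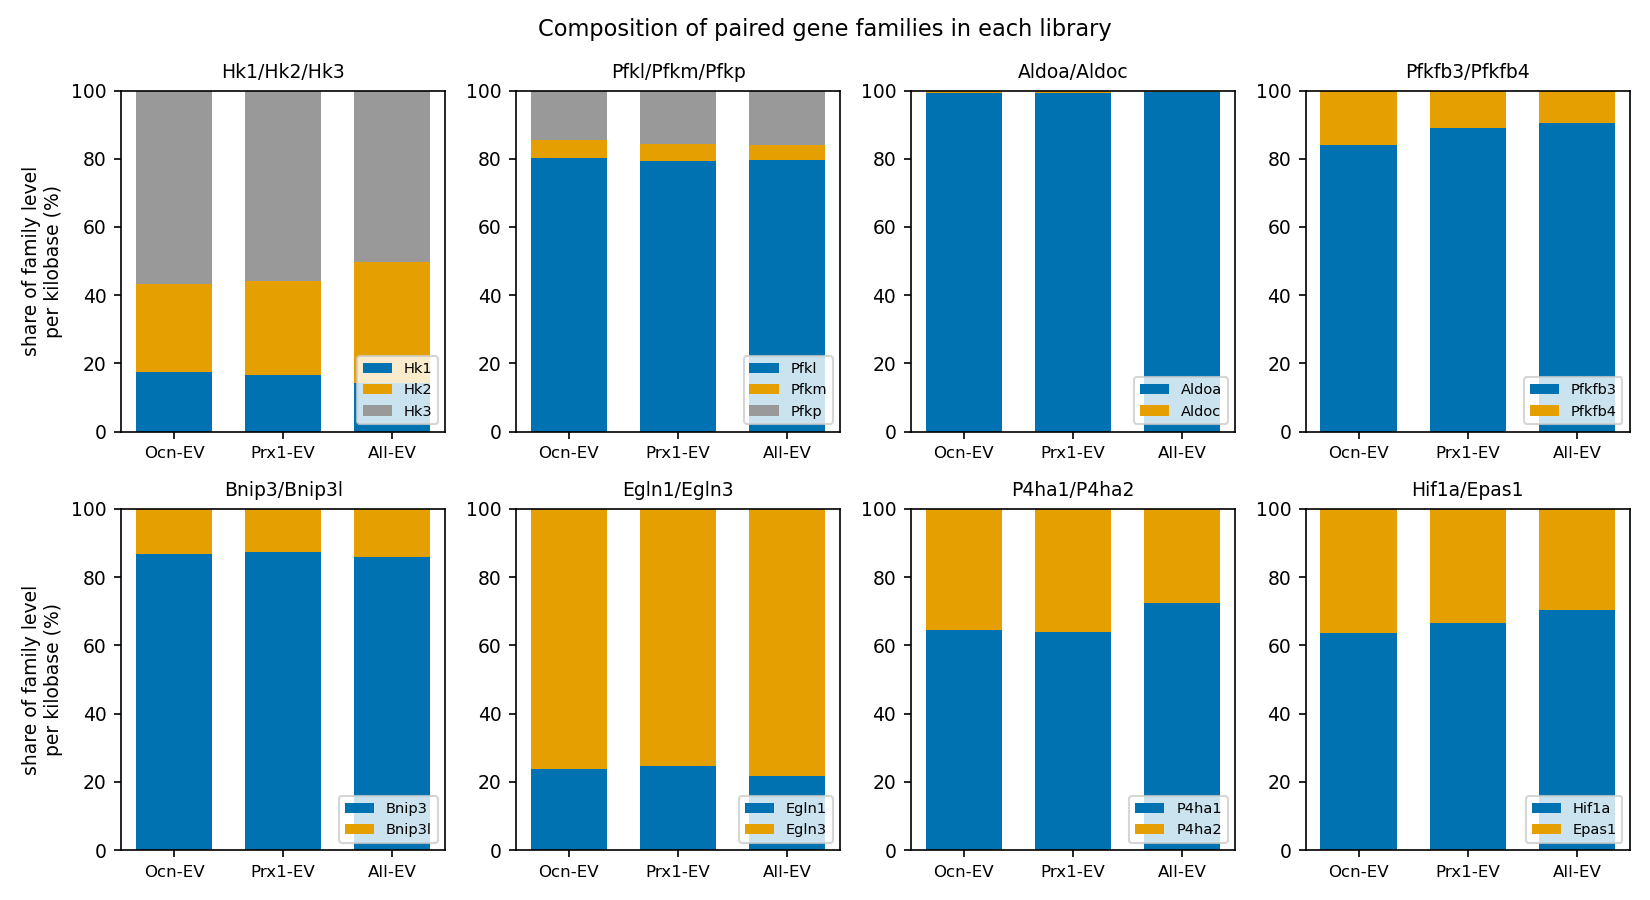
Share (y axis, percent) of each gene in the summed level per kilobase of its family, in the Ocn-EV, Prx1-EV and All-EV libraries (bars), for 8 families (panels). The Hk2 share is lower with Ocn-EV (25.7%) and Prx1-EV (27.6%) than with All-EV (35.3%), and the P4ha2 share is higher (35.5% and 36.1%, against 27.4%).

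Among the other HIF-linked genes, the alpha subunits themselves come first. HIF activity is set mainly by the stability of these proteins, which RNA does not show. Hif1a stood at 1854 with Ocn-EV and 1828 with Prx1-EV, against 2012 with All-EV, log2 ratios of −0.12 (−0.21 to −0.02) and −0.14 (−0.23 to −0.05), which turned to 0.14 and 0.09 with equal totals. Epas1, which encodes the related subunit of endothelial, stromal and myeloid cells, stood at 1234 with Ocn-EV and 1070 with Prx1-EV, against 983 with All-EV. Its log2 ratio was 0.33 (0.20 to 0.46) with Ocn-EV and 0.12 (−0.00 to 0.25) with Prx1-EV. Without the dependence on length and GC, Epas1 was at 0.09 with Ocn-EV and −0.09 with Prx1-EV. Neither subunit passed 1.5-fold.

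The prolyl hydroxylases Egln1 and Egln3 mark the alpha subunits for destruction, and Egln3 is itself a HIF target. Egln3 stood at 6738 with Ocn-EV and 7840 with Prx1-EV, against 9111 with All-EV, log2 ratios of −0.44 (−0.48 to −0.39) and −0.22 (−0.26 to −0.17), the second at 0.01 with equal totals. Egln1 stood at 2855 with Ocn-EV and 3442 with Prx1-EV, against 3419 with All-EV. Egln1 was lower with Ocn-EV (log2 −0.26, −0.34 to −0.19), but at −0.00 with equal totals, and its Prx1-EV interval held 0.

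The secreted factors were both lower as deposited. Adm, adrenomedullin, stood at 1264 with Ocn-EV and 1391 with Prx1-EV, against 2276 with All-EV, 1.80-fold lower (log2 −0.85, −0.95 to −0.74) and 1.64-fold lower (log2 −0.71, −0.81 to −0.61). Vegfa, the main growth factor of blood vessels, stood at 11182 with Ocn-EV and 11971 with Prx1-EV, against 13589 with All-EV. The log2 ratios of Vegfa were −0.28 (−0.32 to −0.24) and −0.18 (−0.22 to −0.15), and −0.02 and 0.04 with equal totals. Adm had the lowest ratio of the 16 other HIF-linked genes in both comparisons. It stayed lower with equal totals (−0.59 and −0.48) and without the dependence on length and GC (−0.58 and −0.44), where 3 of these 4 values fall short of 1.5-fold.

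Mitochondrial and stress genes were also lower. Bnip3 and Bnip3l, receptors that mark mitochondria for removal, had log2 ratios of −0.50 (−0.54 to −0.46) and −0.61 (−0.68 to −0.54) with Ocn-EV, and of −0.30 (−0.34 to −0.27) and −0.46 (−0.53 to −0.40) with Prx1-EV. Bnip3 stood at 10290 with Ocn-EV and 11798 with Prx1-EV, against 14529 with All-EV, and turned to 0.07 in Prx1-EV over All-EV once the length and GC trend was removed. Bnip3l stood at 2896 with Ocn-EV and 3199 with Prx1-EV, against 4415 with All-EV, 1.52-fold and 1.38-fold lower, and at −0.42 with Ocn-EV without the length and GC trend, short of 1.5-fold. Ddit4, an inhibitor of the growth regulator mTOR complex, stood at 800.4 with Ocn-EV and 899 with Prx1-EV, against 1286 with All-EV, 1.61-fold and 1.43-fold lower. Higd1a, a mitochondrial protein gene induced by low oxygen, Ndrg1, a stress-induced differentiation gene, and Mxi1, a partner of MAX that opposes Myc, had log2 ratios from −0.44 to −0.37 with Ocn-EV and from −0.28 to −0.25 with Prx1-EV. With equal totals those of Bnip3, Bnip3l, Ddit4, Higd1a, Ndrg1 and Mxi1 stayed below 0 in both comparisons.

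For the other targets the deposited levels were close to All-EV or higher. Kdm3a, a histone demethylase, stood at 2347 with Ocn-EV and 2484 with Prx1-EV, against 2403 with All-EV, and both intervals held 0. Ankrd37, an ankyrin-repeat gene, stood at 1867 with Ocn-EV and 2211 with Prx1-EV, against 1918 with All-EV, log2 ratios of −0.04 (−0.14 to 0.06) and 0.21 (0.12 to 0.29). Its ratios depended on the length and GC trend, without which they were 0.34 and 0.60, the second past 1.5-fold. P4ha1 and P4ha2 encode catalytic subunits of the enzyme that hydroxylates prolines of collagen. P4ha2 stood at 3372 with Ocn-EV and 3663 with Prx1-EV, against 2237 with All-EV, 1.51-fold higher (log2 0.59, 0.51 to 0.67) and 1.64-fold higher (log2 0.71, 0.63 to 0.79). Without the dependence on length and GC, P4ha2 was at 0.54 with Ocn-EV, short of 1.5-fold, and 0.68 with Prx1-EV. P4ha1 stood at 8096 with Ocn-EV and 8575 with Prx1-EV, against 7821 with All-EV, with log2 ratios of 0.05 and 0.13. The collagen hydroxylase P4ha2 was the highest of the 16 in both comparisons. In the same libraries the summed stromal markers, mostly Col1a1 and Col1a2, were also higher.

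As a group the 16 other HIF-linked genes took 0.439% of reads (0.436 to 0.443) with Ocn-EV and 0.474% (0.471 to 0.477) with Prx1-EV, against 0.450% (0.447 to 0.454) with All-EV. Their median log2 ratio was −0.32 with Ocn-EV and −0.20 with Prx1-EV, and −0.07 and 0.03 with equal totals. A share of reads does not depend on the deposited scaling, whereas a level does. On the deposited scale the summed level of the 16 genes was 64745 with Ocn-EV and 71444 with Prx1-EV, against 79256 with All-EV. Whether the group was higher or lower with Prx1-EV thus depends on the scaling. With Ocn-EV, 3 were at least 1.5-fold lower (Adm, Bnip3l and Ddit4) and 1 higher (P4ha2), and with Prx1-EV 1 was lower (Adm) and 1 higher (P4ha2). Beside 13.6% and 13.8% of all genes with Ocn-EV, and 12.7% in each direction with Prx1-EV, these counts are near or below the share among all genes. The difference between this group and the glycolytic enzymes was not tested, since genes are not replicates.

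The ratios of glycolytic genes have to be read beside their abundance, since abundant genes in general were lower than with All-EV. Over the 65 genes whose mean level reached 20000, the median log2 ratio was −0.46 with Ocn-EV and −0.42 with Prx1-EV. The 7 members in that range (Gpi1, Aldoa, Tpi1, Pgk1, Eno1, Pkm and Ldha) had medians of −0.59 and −0.52. Of these members, 4 of 7 were at least 1.5-fold lower with Ocn-EV, where 44.6% of those 65 genes were, and 2 of 7 with Prx1-EV, where 36.9% were. Over 382 genes at 5000 to 20000, the medians were −0.30 and −0.20, and the 12 members there had medians of −0.30 and −0.17, with 2 of 12 and 1 of 12 at least 1.5-fold lower where 31.2% and 29.1% of the 382 genes were. At 1000 to 5000, 2696 genes had medians of −0.05 and 0.00, and the 13 members had medians of −0.12 and 0.01. At 200 to 1000, 5037 genes had medians of −0.02 and 0.00, and the 5 members of −0.00 and 0.00. The members' medians were thus close to those of all genes below 20000. Slc2a1, Adm, Gapdh, Pfkfb4 and P4ha2 lay at least 1.5-fold from All-EV within ranges whose medians lay between −0.30 and 0.00. For Gapdh the range itself is uncertain, since near-identical copies make its level uncertain. Transcript length also differed, with a median of −0.21 with Ocn-EV and −0.22 with Prx1-EV over 1645 genes of 1 to 2 kilobases, against medians of −0.64 and −0.52 for the 8 members of that length. At 2 to 3 kilobases the 6 members had medians of −0.42 and −0.24, against −0.07 and −0.06 over 2238 genes. At 3 to 5 kilobases, which held 17 of the 37 members, the members' medians were −0.06 and 0.01, against 0.03 and 0.05 over 3963 genes. From 5 kilobases the 5 members had medians of −0.20 and −0.03, against 0.14 and 0.16 over 2683 genes. Below 1 kilobase the 1 member, Ankrd37, went the other way, at −0.04 and 0.21, against medians of −0.42 and −0.46 over 427 genes.

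**Figure D4:**
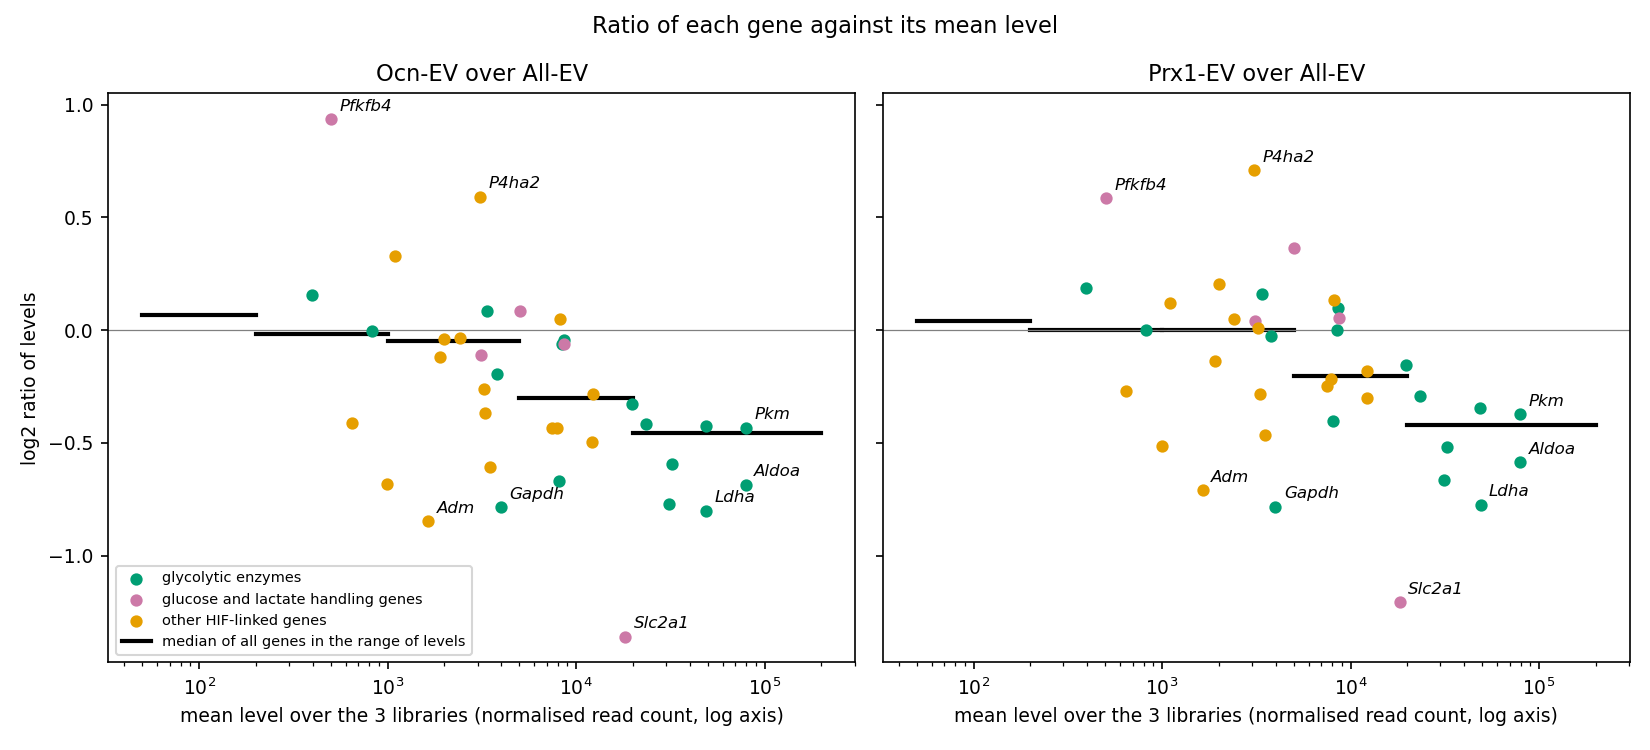
Log2 ratio of levels (y axis) of the 37 genes in Ocn-EV over All-EV and Prx1-EV over All-EV against their mean level over the 3 libraries (x axis, log scale), coloured by role. Black lines are medians of all genes in 5 ranges of level, which fall to −0.46 and −0.42 in the highest range.

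Between the tagged preparations, the levels were close. With Ocn-EV, 0 of 37 genes were at least 1.5-fold higher or lower than with Prx1-EV, where 2.24% and 1.30% of all genes were. Smaller differences ran mostly one way: 30 of 37 intervals lay below 0 and 2 above, where 20.3% and 15.8% of all genes did. The median log2 ratio of Ocn-EV over Prx1-EV was −0.12 for the 37 genes and −0.01 for all genes, and −0.08 and 0.02 with equal totals. In the range of 5000 to 20000, where counting error is small, 12 of 12 members lay below 0, against 54.2% of 382 genes. In the range of 1000 to 5000 it was 10 of 13 members, against 31.2% of 2696 genes. The outer ranges lay closer to all genes, with 7 of 7 members at 20000 and above, against 75.4% of 65 genes. At 200 to 1000 it was 1 of 5 members, against 16.7% of 5037 genes.

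The exceptions were Pfkfb4 and Epas1, which were higher with Ocn-EV than with Prx1-EV (log2 0.35, 0.18 to 0.51, and 0.21, 0.09 to 0.32). The lowest ratios of Ocn-EV over Prx1-EV were those of Pfkfb3 (−0.28, −0.33 to −0.23), Hk2 (−0.27, −0.31 to −0.22) and Egln1 (−0.27, −0.34 to −0.20). In order of level, 22 of 37 genes were highest with All-EV, then Prx1-EV, then Ocn-EV, an order found in 25.9% of all genes past the filter. Among genes whose mean level reached 1000 it was found in 20 of 32 members and in 33.6% of 3143 genes. With equal totals, 15 of these 22 genes kept that order, which 13.3% of all genes then had. The orders take no account of counting error. Among the 22, the Prx1-EV over All-EV intervals of Pfkl and Pfkp held 0, as did the Ocn-EV over Prx1-EV intervals of Gapdh and Higd1a.

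**Figure D5:**
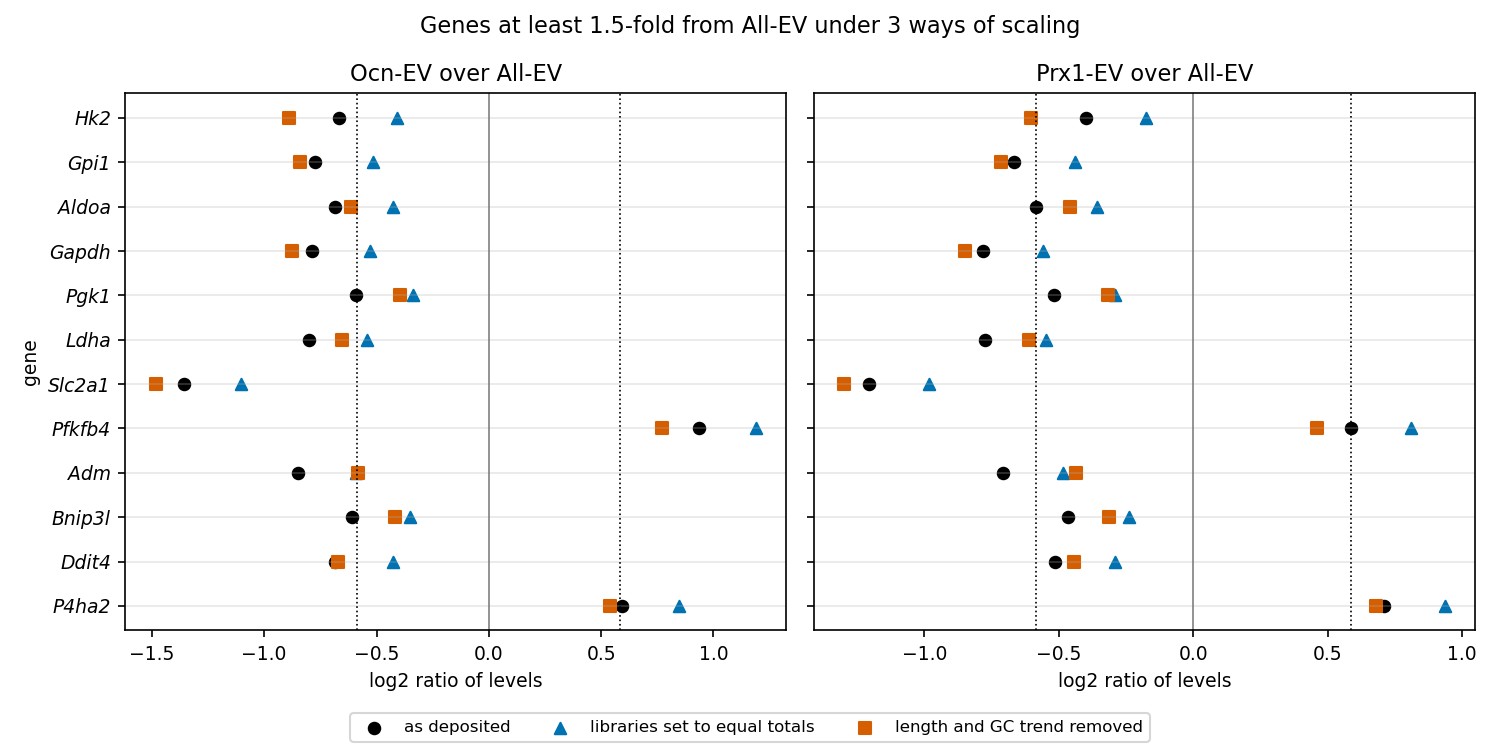
Log2 ratio of levels (x axis) in Ocn-EV over All-EV and Prx1-EV over All-EV for the 12 genes (y axis) at least 1.5-fold from All-EV in either comparison, as deposited, at equal totals, and without the dependence on length and GC. Dotted lines mark 1.5-fold. Slc2a1 stays beyond them in all 3 settings (−1.10 at its nearest with Ocn-EV and −0.98 with Prx1-EV).

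Further genes of glucose use came from a list of 32, of which 27 passed the filter. With Ocn-EV, 7 of 27 were at least 1.5-fold lower and 2 higher than with All-EV, and with Prx1-EV 5 were lower and 2 higher, beside 13.6% and 13.8% of all genes with Ocn-EV and 12.7% in each direction with Prx1-EV. The median log2 ratio was −0.23 with Ocn-EV and −0.25 with Prx1-EV, and 0.03 and −0.03 with equal totals. Mpc1, a subunit of the carrier that takes pyruvate into mitochondria, stood at 325 with Ocn-EV and 370 with Prx1-EV, against 810 with All-EV, log2 ratios of −1.31 (−1.51 to −1.12) and −1.13 (−1.31 to −0.96). Slc2a6, a glucose transporter gene of inflammatory macrophages, had 48 reads with Ocn-EV and 47 with Prx1-EV, against 103 with All-EV. Pgam2, the muscle phosphoglycerate mutase, stood at 136 with Ocn-EV and 159 with Prx1-EV, against 66.8 with All-EV, 2.03-fold and 2.38-fold higher. The pyruvate carrier Mpc1 was therefore lower together with the glucose transporter Slc2a1 in both libraries. Without the length and GC trend, Mpc1 was at −0.85 with Ocn-EV and −0.68 with Prx1-EV, short of 2-fold, and Slc2a1 at −1.48 and −1.30.

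Of 36 further HIF-linked genes, 31 passed the filter. With Ocn-EV, 6 were at least 1.5-fold lower and 6 higher than with All-EV, and with Prx1-EV 7 were lower and 6 higher, where the shares of all genes were 13.6% and 13.8% with Ocn-EV and 12.7% in each direction with Prx1-EV. The median log2 ratio was 0.17 with Ocn-EV and 0.04 with Prx1-EV, and 0.42 and 0.27 with equal totals. Ero1a, the oxidase that forms disulfide bonds in the endoplasmic reticulum, stood at 9055 with Ocn-EV and 12376 with Prx1-EV, against 30458 with All-EV, log2 ratios of −1.75 (−1.79 to −1.72) and −1.30 (−1.33 to −1.27). Cited2, a competitor of HIF for its coactivator, stood at 1424 with Ocn-EV and 1312 with Prx1-EV, against 3567 with All-EV. Nos2 and Acod1, genes of activated macrophages, and Hmox1, heme oxygenase, were lower as well, with log2 ratios of −4.21, −3.25 and −1.75 with Ocn-EV and of −4.23, −3.97 and −1.71 with Prx1-EV.

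Genes at least 2-fold higher in both comparisons included Edn1, Lox, Loxl2 and Tfrc. Edn1, the endothelin peptide gene, stood at 207 with Ocn-EV and 163 with Prx1-EV, against 47.5 with All-EV. Lox and Loxl2, which crosslink collagen, had log2 ratios of 1.57 and 1.32 with Ocn-EV and of 1.28 and 1.10 with Prx1-EV. Tfrc, the transferrin receptor, stood at 807 with Ocn-EV and 902 with Prx1-EV, against 335 with All-EV. Plod1 and Plod2, collagen lysyl hydroxylases of the same list chosen after their values were seen, had log2 ratios of 0.46 and 0.28 with Ocn-EV and of 0.45 and 0.32 with Prx1-EV, short of 1.5-fold.

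The core of the oxygen-sensing machinery differed little. Arnt, the partner of the alpha subunits, had log2 ratios of −0.26 with Ocn-EV and −0.15 with Prx1-EV. Vhl, which targets hydroxylated alpha subunits for destruction, had ratios of −0.36 and −0.09. Egln2, a further prolyl hydroxylase, had 0.25 and 0.17, and Hif1an, the asparagine hydroxylase that blunts HIF activity, had 0.19 and 0.04. With equal totals Arnt and Vhl were at 0.08 and 0.14 in Prx1-EV over All-EV. None of these 4 genes passed 1.5-fold in either comparison.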

How the data were processed

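Messenger RNA of 3 cultures was sequenced, 1 library per group, with groups taken from the treatment labels. The authors deposited 1 signal value per gene and library, which by its whole-read steps is a read count divided by 1 factor per library. The submitters' processing notes list DESeq2 2.11.40.8, featureCounts 2.0.3, HISAT2 2.2.1, Trimmomatic 0.38.1 and build mm10, without settings, and whether counting used strand is not stated. Dividing by the worth of 1 read (1.04 in Ocn-EV, 0.872 in Prx1-EV and 1.13 in All-EV) gave whole reads for 100% of values at a tolerance of 1e-06. Symbols came from RefSeq on GRCm38.p6 and matched 25275 of 27179 identifiers.

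Log2 ratios used a pseudocount of 1, which understates changes of low genes, whereas folds have none. Intervals are exact binomial (Clopper-Pearson) on recovered reads. PCR copies were not told apart by molecular identifiers, so reads are not independent molecules. Transcript lengths came from GENCODE vM21 for 37 members. A comparison of recovered reads (exact binomial, Benjamini-Hochberg adjusted at 0.05), which compares libraries and not conditions, called 7134, 7092 and 2840 genes for Ocn-EV over All-EV, Prx1-EV over All-EV and Ocn-EV over Prx1-EV. On simulated libraries of Ocn-EV over All-EV (11067 genes), 95.6% of intervals held the true ratio and 100% of 50 genes changed 3-fold passed 1.5-fold. Of 10867 unchanged genes, 27 passed 1.5-fold as well. With 1 library in each group, the simulation does not bear on the spread between cultures. Alternatives were scaling to equal totals, filters of 10, 200 and none, pseudocounts of 0 and 5, a 2-fold threshold, removal of a cubic trend on length and GC content, and other lengths. All 37 members are named, and of further pathway genes those at least 2-fold from All-EV, with Vhl, Arnt, Egln2 and Hif1an in any case. The values of 1 gene named by this rule are not reported here. Members and lists were chosen with earlier results of these data known. Analyses used Python 3.11.15, numpy 2.4.6, pandas 2.3.3 and scipy 1.17.1.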

Additional observations from a re-analysis of the deposited data

Results flagged for a closer look

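Slc16a3, the lactate exporter, lay on opposite sides of All-EV in the 2 comparisons as deposited, with both counting intervals away from 0. Its log2 ratio was 0.055 (0.01 to 0.10) in Prx1-EV over All-EV and −0.06 (−0.11 to −0.02) in Ocn-EV over All-EV. The direct ratio of Ocn-EV over Prx1-EV was −0.12 (−0.16 to −0.07). The opposite signs hold under the deposited scaling alone of the 3 tried. With equal totals both ratios to All-EV were positive (0.20 with Ocn-EV and 0.28 with Prx1-EV), and without the length and GC trend both were negative (−0.33 and −0.16). With 1 library in each group the difference between conditions was not tested.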

How the results depend on the processing

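No paired analysis was possible because each group holds 1 library, and no library could be left out. Filters of 10, 200 or none left every member in place, and pseudocounts of 0 and 5 changed 1 count, that of genes at least 1.5-fold higher in Prx1-EV over All-EV (1 with a pseudocount of 5, Pfkfb4 falling below the threshold). No result past 1.5-fold changed sign under any setting. At equal totals, medians over glycolytic enzymes were −0.17 (Ocn-EV over All-EV), −0.093 (Prx1-EV over All-EV) and −0.047 (Ocn-EV over Prx1-EV). Those over handling genes were 0.20 and 0.28, and over other HIF-linked genes −0.067 and 0.025, for Ocn-EV and Prx1-EV over All-EV. The counts of lower genes were then 2 (Slc2a1 and Adm) and 1 (Slc2a1). This scaling shifts all genes by a common amount. With the length and GC trend removed, the medians over glycolytic enzymes were −0.40 and −0.27 and over handling genes −0.16 and −0.025, and 1 gene was at least 1.5-fold higher in Ocn-EV over All-EV (Pfkfb4). Of the 10 lower genes, 7 kept 1.5-fold with Ocn-EV (not Pgk1, Bnip3l and Adm). With Prx1-EV, 4 of 5 did (not Adm) with Hk2 added, and of the higher genes P4ha2 did with Ankrd37 added. The shares of all genes past 1.5-fold given earlier hold for the deposited levels, so the counts in these settings have no such share beside them. The cause was not tested. A 2-fold threshold left 0 higher and 1 lower in each comparison with All-EV. The comparison of reads called 5 higher and 26 lower (Ocn-EV over All-EV), 8 and 21 (Prx1-EV over All-EV), and 2 and 26 (Ocn-EV over Prx1-EV). Of all 11067 genes it called 3404 higher and 3730 lower (Ocn-EV over All-EV), and 3502 and 3590 (Prx1-EV over All-EV). In Ocn-EV over Prx1-EV it called 1227 of all genes higher and 1613 lower. These calls compare libraries and not conditions. The order of levels at equal totals was an alternative chosen after seeing the data. Depth did not limit the abundant members, but Pfkm, Higd1a and Pfkfb4 have counting intervals wider than 0.30 on the log2 scale.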
